A study of Mus musculus with 30 samples.

Results

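Lysozyme, an angiogenin and the alpha-defensins are the main antimicrobial products of Paneth cells, and 10 genes of this kind were followed in the terminal ileum of TL1A transgenic mice: Lyz1, Ang4, Defa3, Defa5, Defa17, Defa20, Defa21, Defa22, Defa23 and Defa24. They were taken by symbol from the 24062 rows of the ileum count table, and all 10 symbols had a row. Of these, 7 passed the filter on low counts and were tested in 1 fit over 14959 genes. Ang4 rose about 8-fold in both transgenic genotypes. Lyz1 fell in 1 of them, and no alpha-defensin member passed the test in either in this fit. Defa21 and Defa22 were lower in most transgenic libraries, while Defa24, Defa17 and Defa3 were not. Some of these calls changed with other settings of the fit.

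Paneth cells sit at the base of small intestinal crypts, next to the stem cells, and release granules of antimicrobial protein into the crypt lumen. Lysozyme cuts bacterial cell walls, angiogenin 4 is a member of the ribonuclease A family with microbicidal activity, and alpha-defensins (cryptdins) are short cationic peptides that damage bacterial membranes after the metalloproteinase matrilysin (Mmp7) has cleaved their precursors. TL1A is a cytokine of the TNF family made as a membrane protein and shed as a soluble form, and it acts through the receptor DR3 on lymphocytes.

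Poly-A RNA was sequenced from C57bl/6 mice of 3 genotypes: 16 terminal ileum libraries (5 WT, 5 Mem and 6 Mem+Sol) and 14 lung libraries. In Mem mice a membrane restricted TL1A with a Delta 69-93 deletion was overexpressed. In Mem+Sol mice both the membrane bound and the soluble form were overexpressed. The label of the WT group itself names TL1A expression driven by the CD2 promoter, the promoter of a lymphocyte gene, and the labels name no promoter for the other groups. No ages, founder lines or separate animals are given in the labels, so a p-value here reflects the spread among these libraries. Part of that spread may be technical. By their labels, 1 WT library was female and 4 were male, 2 Mem libraries were female and 3 male, and Mem+Sol had 3 of each sex. Each genotype thus held more than 1 animal, but how many is not stated. All ileum libraries were sequenced in batch 3.

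Ileum libraries held from 4295039 to 36133187 counts, and the WT libraries were the shallowest group, with 46141107 counts in sum beside 105172311 in Mem. Levels below are CPM, counts per 1000000 of the normalised library size. Mem replicate 1 differed from the rest of its group. A principal component analysis of the tested genes put it at -39.91 on the leading axis (44.7% of the variance), with the remaining Mem libraries between 23.2 and 30.2, the Mem+Sol libraries between 4.37 and 72.0 and the WT libraries between -84.03 and -51.32. Results of the tested members that move without this library are given with and without it. Tests of other genes and counts over lists are given only with it included, and how far they depend on it was not tested. These libraries are whole tissue, so fewer Paneth cells and less RNA per Paneth cell cannot be told apart.

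The alpha-defensin members lie in one cluster on the plus strand of chromosome 8 (GRCm38), each with 2 exons, and their sequences are close enough that reads may be shared. Shown are the last 105 coding bases (bases 175 to 279 of the coding sequence, GENCODE M21) of the 4 members whose counts part in the transgenic libraries, with capitals marking bases that had no identical partner in an alignment to Defa24. They come from Defa24 (chr8:21734494-21735471), Defa17 (chr8:21655767-21656736), Defa21 (chr8:21025545-21026517) and Defa22 (chr8:21162277-21163249).
Defa24: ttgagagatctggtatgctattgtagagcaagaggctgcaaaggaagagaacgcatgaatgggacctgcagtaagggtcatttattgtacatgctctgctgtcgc
Defa17: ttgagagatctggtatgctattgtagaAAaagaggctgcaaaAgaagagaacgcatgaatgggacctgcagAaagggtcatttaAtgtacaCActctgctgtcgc
Defa21: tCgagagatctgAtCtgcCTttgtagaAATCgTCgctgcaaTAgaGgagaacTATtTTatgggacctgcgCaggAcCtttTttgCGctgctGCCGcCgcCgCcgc
Defa22: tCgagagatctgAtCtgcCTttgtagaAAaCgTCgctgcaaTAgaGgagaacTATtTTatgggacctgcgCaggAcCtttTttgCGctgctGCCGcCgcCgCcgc
Defa17 differed from Defa24 at 7 of these bases, Defa22 at 31 and Defa21 at 32. The coding sequence of Defa3 (chr8:21287409-21288377) was identical to that of Defa17 over all 279 bases, and RefSeq lists Defa3 as another name of Defa17. Defa21 and Defa22 matched at 277 of 279 coding bases, while Defa21 and Defa24 matched at 80.6% of aligned bases. Of all stretches of 50 bases in its transcript, the share found in no other annotated gene was 71.9% for Defa24, 27.1% for Defa21, 25.1% for Defa22, 8.0% for Defa17 and 7.8% for Defa3. Defa21 shared 72.9% of its stretches with Defa22, and Defa3 shared 88.6% of its own with Defa17, so the counts were also read as these pairs. Defa24 shared 26.5% of its stretches with Defa30, whose counts stand in the table under the older symbol Gm15284. Lyz1 (chr10:117287795-117292868, minus strand, 4 exons) and Ang4 (chr14:51763892-51773590, minus strand, 2 exons) were better resolved, with 83.9% and 95.3% of 50-base stretches unshared, although the coding sequence of Lyz1 is 95.0% identical to that of Lyz2, the macrophage lysozyme.

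Promoter sequence was matched in RefSeq (GRCm38.p6) for 6 of the 10 members, Lyz1, Ang4, Defa20, Defa21, Defa22 and Defa23. It was not matched for Defa3, Defa5, Defa17 and Defa24. The 250 bases before the start are shown for the members whose levels parted, Defa21 (chr8:21025295-21025544, plus strand), Ang4 (chr14:51773591-51773840, minus strand) and Lyz1 (chr10:117292869-117293118, minus strand). Capitals mark matches to the motif of TCF/LEF, the DNA-binding partners of beta-catenin in Wnt signalling (CTTTGAT or its reverse complement), and to the TATA box (TATAAA).
Defa21: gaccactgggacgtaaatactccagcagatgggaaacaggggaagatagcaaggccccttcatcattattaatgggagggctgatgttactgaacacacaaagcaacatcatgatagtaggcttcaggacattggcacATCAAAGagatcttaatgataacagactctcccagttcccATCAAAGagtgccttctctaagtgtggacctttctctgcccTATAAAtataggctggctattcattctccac
Ang4: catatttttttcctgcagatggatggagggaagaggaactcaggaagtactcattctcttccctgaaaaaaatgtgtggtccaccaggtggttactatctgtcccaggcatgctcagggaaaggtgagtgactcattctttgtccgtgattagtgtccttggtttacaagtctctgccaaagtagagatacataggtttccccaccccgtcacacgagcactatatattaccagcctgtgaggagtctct
Lyz1: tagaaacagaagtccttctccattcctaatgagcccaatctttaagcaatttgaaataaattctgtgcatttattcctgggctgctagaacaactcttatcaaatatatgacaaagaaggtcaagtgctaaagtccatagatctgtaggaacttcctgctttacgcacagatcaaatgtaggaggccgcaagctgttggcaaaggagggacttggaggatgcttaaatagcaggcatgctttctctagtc
The window of Defa22 was identical to that of Defa21 over 250 bases. Both held TCF/LEF matches that began 112 and 72 bases before the start and a TATA match at 31. Defa20, which had 1 count, held the same 3 matches at the same places, and Defa23 held them at 114, 74 and 33. No TCF/LEF match, no STAT6 match (TTCNNNNGAA, the site class of the factor downstream of IL-4 and IL-13 receptors) and no TATA match stood in the windows of Lyz1 and Ang4, and no STAT6 match in those of Defa21 and Defa22. The motifs were searched on both strands and do not overlap each other here. Among 32851 promoters of this length, 3.21% held the TCF/LEF letters, 5.85% the STAT6 letters and 12.4% the TATA letters. A match describes these letters only.

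Per kilobase of transcript, the mean WT level was highest for Lyz1 at 4706 CPM per kb, followed by Defa21 at 3645, Defa24 at 3161, Defa22 at 3051, Defa17 at 1420, Ang4 at 1142 and Defa3 at 162. In Mem libraries Ang4 stood first at 10790 CPM per kb, ahead of Defa24 at 3609 and Lyz1 at 2559. In Mem+Sol libraries Ang4 again stood first at 12170 CPM per kb, then Defa24 at 5662 and Defa17 at 2996, while Defa21 stood at 656. The WT levels of Defa21, Defa24 and Defa22 differed by less than the spread between libraries, whose coefficient of variation was 26.4% for Defa21, 43.6% for Defa24 and 34.0% for Defa22. Defa5 had 2 counts in all (1 in Mem and 1 in Mem+Sol), Defa20 had 1 count in Mem+Sol, and Defa23 had 0. Counts of 0 over a genotype allow a level of up to 0.0650 CPM in WT, 0.0285 CPM in Mem and 0.0231 CPM in Mem+Sol (3 counts over the group, counting error only). These 3 genes were not tested. Their transcripts are almost wholly shared with relatives: 11.9% of the 100-base stretches of Defa5, 0.3% of those of Defa20 and 10.9% of those of Defa23 were found in no other gene. Defa5 shared 74.7% of them with Defa34, whose row under the older symbol Gm15315 held 15562 counts. Defa20 shared 74.5% with Defa32, whose row Gm15308 held 1 count. Defa23 shared 89.1% with Defa31, whose row Defa-rs7 held 0.

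Ang4 rose in both transgenic genotypes. The WT libraries stood at 605, 1116, 884, 675 and 770 CPM for replicates 1 to 5, and the Mem libraries at 3413, 10930, 7442, 8842 and 7634 CPM. The Mem+Sol libraries ranged from 4098 CPM through a median of 7272 to 17860 CPM. Every transgenic library lay above every WT library, and Mem replicate 1, at 3413 CPM, was the lowest of them. Means with their SD were 810 ± 200 CPM over the 5 WT libraries, 7652 ± 2747 over the 5 of Mem and 8631 ± 5472 over the 6 of Mem+Sol. Against WT the log2 fold change in Mem was 3.11 ± 0.42 (SE), or 8.61-fold, with a Benjamini-Hochberg adjusted p of 0.000434 in the quasi-likelihood test of edgeR. In Mem+Sol it was 3.06 ± 0.44, or 8.32-fold, with an adjusted p of 0.000239 by the same test. Without Mem replicate 1 the Mem value was 3.29 (adjusted p = 0.000119). The Mem+Sol level did not differ detectably from the Mem level, with a log2 difference of -0.05 ± 0.39 and an adjusted p of 0.963. Ang4 took 0.0603 to 0.1003% of all counts of a WT library, 0.327 to 1.13% of a Mem library and 0.414 to 1.72% of a Mem+Sol library.

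Lyz1 was lower in the transgenic libraries, and the fall passed the test in Mem+Sol. The WT libraries stood at 3524, 7960, 6306, 4942 and 6987 CPM, and the Mem libraries at 4727, 2321, 2823, 3101 and 3187 CPM. The Mem+Sol libraries ranged from 166 CPM in replicate 4 through a median of 1206 to 5179 CPM in replicate 5. Mem replicate 1 was the only Mem library above the lowest WT library. In Mem+Sol, replicate 5 lay within the WT range and the other 5 libraries lay below it. Means with their SD were 5944 ± 1742 CPM (WT), 3232 ± 902 (Mem) and 1825 ± 1768 (Mem+Sol). Its log2 fold change was -0.95 ± 0.58 in Mem (adjusted p = 0.33) and -1.87 ± 0.61 in Mem+Sol (adjusted p = 0.0315), a 3.66-fold lower level. Between Mem+Sol and Mem it was -0.92 ± 0.56 (adjusted p = 0.5). The Mem+Sol call was lost when WT replicate 2 (adjusted p = 0.0602), WT replicate 3 (0.0514) or Mem+Sol replicate 6 (0.09) was left out, with the replicate number as a block (0.067), and with only these 2 genotypes in the fit (0.0554). Without Mem replicate 1 the values were -1.22 in Mem (adjusted p = 0.202) and -1.95 in Mem+Sol (adjusted p = 0.0242).

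Lyz2 did not follow. Its levels were 33.9 to 73.9 CPM in WT, 46.7 to 62.9 in Mem and 49.8 to 94.3 in Mem+Sol, and its log2 fold changes of 0.12 in Mem (adjusted p = 0.782) and 0.33 in Mem+Sol (adjusted p = 0.267) did not pass the test. The ratio of Lyz1 to Lyz2 counts was 74.3 to 235 in WT, 44.9 to 81.0 in Mem and 2.99 to 104 in Mem+Sol. The ratio of Ang4 to Lyz1 counts was 0.110 to 0.172 in WT, 0.722 to 4.71 in Mem and 1.88 to 27.0 in Mem+Sol, with no overlap between WT and either transgenic genotype. These ratios were chosen after the values were seen and carry no test.

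**Figure D1:**
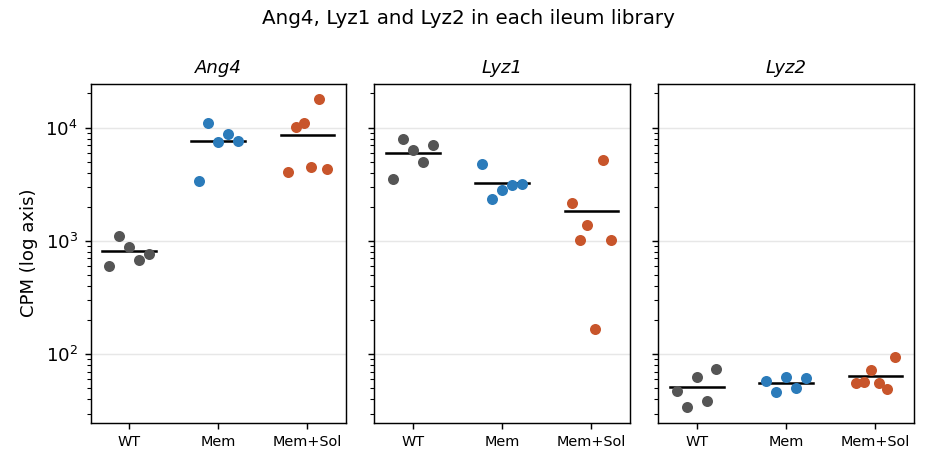
Levels of Ang4, Lyz1 and Lyz2 in each ileum library, in CPM on a log axis, with 1 point per library and a line at the mean of each genotype. All Ang4 points of Mem and Mem+Sol (3413 CPM and above) lie above all WT points (1116 CPM and below), Lyz1 spreads down to 166 CPM in Mem+Sol, and Lyz2 stays between 33.9 and 94.3 CPM.

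Across the 7 tested members, 1 passed the test in Mem against WT (Ang4, higher), where 8.06% of all tested genes passed, 5% higher and 3.06% lower. In Mem+Sol against WT 2 passed (Ang4 higher, Lyz1 lower), where 28.7% of all tested genes passed, 16.6% higher and 12.1% lower, and the libraries did not overlap for Ang4 and Defa21, 2 of the 7. Over all tested genes the libraries did not overlap for 13.5% in this comparison and for 8.74% in Mem against WT, where Ang4 was the only such member. The median log2 fold change of the 7 was 0.21 in Mem and 0.68 in Mem+Sol, beside 0.0 and 0.01 over all tested genes. In Mem+Sol against Mem edgeR called 0 of the 7, where it called 0.0134% of all genes. The libraries overlapped for all 7, and did not for 0.909% of all genes. At an unadjusted p under 0.05 this comparison again had 0, and DESeq2 called 0. The comparisons with WT share the WT libraries and are not independent of each other.

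Defa21 was lower in 4 of 5 Mem libraries and in all Mem+Sol libraries. The WT libraries stood at 1265, 1883, 1430, 1991 and 1049 CPM. The Mem libraries stood at 1496, 293, 196, 128 and 172 CPM, so Mem replicate 1 lay inside the WT range and the other 4 below it. The Mem+Sol libraries ranged from 16.6 CPM through a median of 159 to 714 CPM, all below the lowest WT library. Against WT the difference on the log2 scale was -1.74 ± 0.84 in Mem (adjusted p = 0.216) and -2.25 ± 0.84 in Mem+Sol (adjusted p = 0.0548), so neither passed the test. Without Mem replicate 1 both passed, at -2.91 (adjusted p = 0.0301) and -2.43 (adjusted p = 0.0196), and with WT replicate 2 left out as well the Mem value was -2.83 (adjusted p = 0.0525). Without Mem+Sol replicate 5 the Mem+Sol value was -3.15 (adjusted p = 0.00618), and with DESeq2 its adjusted p was 0.0329. In edgeR its adjusted p was 0.0271 with no sex term, 0.0445 with only these 2 genotypes in the fit and 0.0365 with the replicate number as a block. The Mem+Sol value thus passed in 7 of 24 alternative settings.

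Defa22, the near copy, gave the same order of libraries in WT and Mem, as far as shared reads allow them to be separate measurements. The WT libraries stood at 981, 1565, 1101, 1890 and 856 CPM, and the Mem libraries at 1194, 393, 248, 178 and 203 CPM. The Mem+Sol libraries ranged from 23.9 CPM through a median of 225 to 896 CPM. Mem replicate 1 again lay inside the WT range, and Mem+Sol replicate 5 exceeded the lowest WT library. The differences from WT were -1.49 ± 0.78 in Mem (adjusted p = 0.253) and -1.61 ± 0.77 in Mem+Sol (adjusted p = 0.125). Without Mem replicate 1 they were -2.24 (adjusted p = 0.0778) and -1.74 (adjusted p = 0.077), and neither passed. Without Mem+Sol replicate 5 the Mem+Sol value passed at -2.43 (adjusted p = 0.0141). The summed level of the pair had a median of 2531 CPM in WT, 444 in Mem and 382 in Mem+Sol.

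Defa24 was not lower in the transgenic libraries, and neither difference passed the test. The WT libraries stood at 1322, 2036, 977, 1711 and 576 CPM, and the Mem libraries at 1755, 2263, 1162, 1260 and 1121 CPM. The Mem+Sol libraries ranged from 1079 CPM through a median of 2055 to 4665 CPM. All groups overlapped. On the log2 scale the change was 0.21 ± 0.40 in Mem (adjusted p = 0.798) and 0.89 ± 0.41 in Mem+Sol (adjusted p = 0.11).

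Defa17 was likewise not lower. The WT libraries stood at 550, 944, 449, 721 and 155 CPM, the Mem libraries at 825, 1293, 458, 485 and 431 CPM, and the Mem+Sol libraries ranged from 587 CPM through a median of 1183 to 1885 CPM. WT replicate 5 was the lowest library of all, and the groups overlapped. Its fold change was 0.33 ± 0.44 in Mem (log2, adjusted p = 0.691) and 1.19 ± 0.44 in Mem+Sol (adjusted p = 0.0543). The second passed with DESeq2 (adjusted p = 0.0216), without WT replicate 2 (0.0429), without Mem+Sol replicate 3 (0.0465) and without Mem+Sol replicate 4 (0.0311). Defa3, the row with the same coding sequence, was less abundant, at 23.4 to 101 CPM in WT, 43.2 to 125 in Mem and 37.8 to 180 in Mem+Sol. Its log2 fold changes were 0.21 ± 0.45 (adjusted p = 0.819) and 0.68 ± 0.45 (adjusted p = 0.262). The summed level of Defa3 and Defa17 had a median of 615 CPM in WT, 532 in Mem and 1273 in Mem+Sol.

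**Figure D2:**
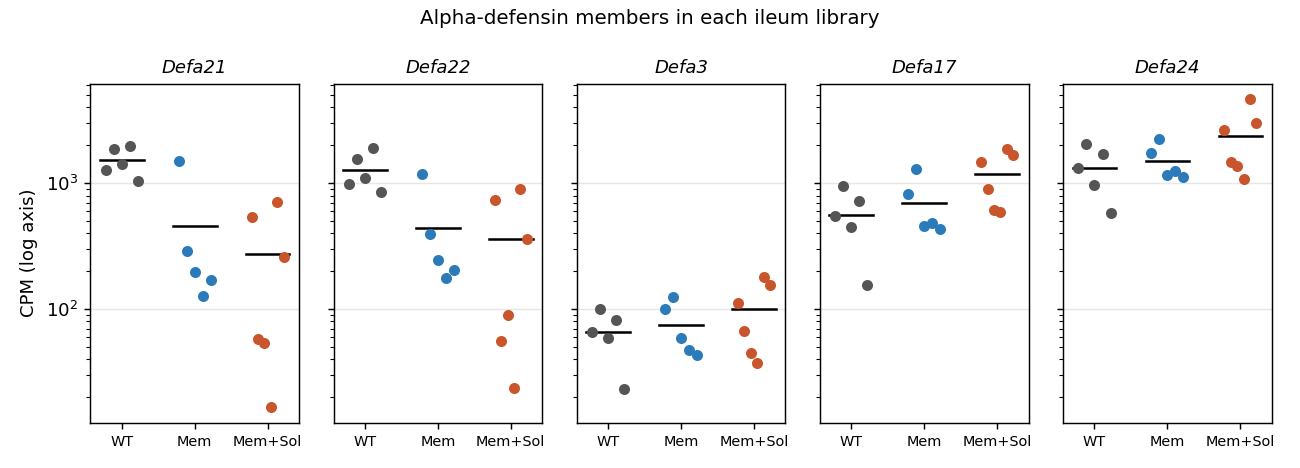
Levels of the 5 tested alpha-defensin members in each ileum library, in CPM on a log axis, with 1 point per library and a line at the mean of each genotype. Defa21 and Defa22 lie at 16.6 and 23.9 CPM in the lowest Mem+Sol library while a single Mem library, replicate 1, stays at 1496 and 1194 CPM, and Defa3, Defa17 and Defa24 overlap between all groups.

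**Figure D3:**
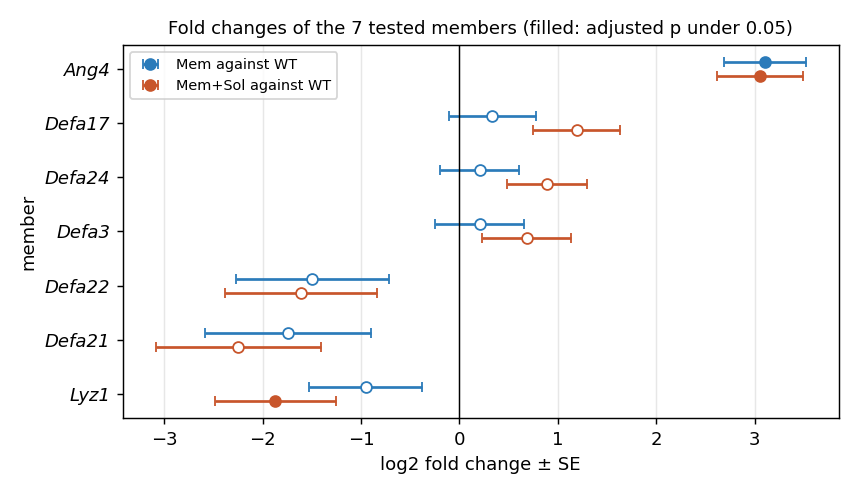
Log2 fold change against WT of the 7 tested members (points) with its SE (bars), for Mem and Mem+Sol, with filled points where the adjusted p was under 0.05. Ang4 lies at 3.11 and 3.06, Lyz1 at -0.95 and -1.87, and the alpha-defensins lie on both sides of 0, from -2.25 for Defa21 to 1.19 for Defa17 in Mem+Sol.

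The summed alpha-defensin counts overlapped between all genotypes, whereas in the shares taken by Defa21 with Defa22 and by Defa24 WT stood apart from Mem and Mem+Sol, which overlapped each other. Summed over the 18 rows whose symbol starts with Defa, the level was 2940 to 7139 CPM in WT, 2100 to 5828 in Mem and 1776 to 8713 in Mem+Sol. Defa21 and Defa22 together took 48.3 to 64.8% of these counts in WT. They took 46.1% in Mem replicate 1, 13.7 to 19.6% in the other Mem libraries and 2.28 to 22.7% in Mem+Sol. Defa24 took 19.6 to 29.9% in WT, 30.1 to 56.4% in Mem and 46.4 to 60.7% in Mem+Sol. The count ratio of Defa24 to Defa21 plus Defa22 was 0.303 to 0.591 in WT, 0.653 to 4.12 in Mem, with the lowest value in replicate 1, and 2.05 to 26.6 in Mem+Sol, without overlap between WT and either transgenic genotype. Such shares and ratios are also given without a test.

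Other alpha-defensin rows were also measured. Of the 10 rows named Defa that were not members, 3 passed the filter. Defa26, at 66.3 ± 20.6 CPM in WT, gave log2 fold changes of 0.59 in Mem (adjusted p = 0.429) and 0.82 in Mem+Sol (adjusted p = 0.175). Defa-ps1 had a mean of 0.547 CPM in WT and 1.02 in Mem+Sol, and Defa25, with 98 counts in all, was not tested. RefSeq synonyms showed 14 further alpha-defensin rows under older symbols, which were looked up after the values were seen. Of these, 8 passed the filter and 0 passed the test in Mem (edgeR, with 2 at an unadjusted p under 0.05), where 8.06% of all tested genes passed. In Mem+Sol 2 fell, where 12.1% of all tested genes did. They were Gm10104 (Defa35), by 2.53 on the log2 scale (adjusted p = 0.00541), and Gm15315 (Defa34), by 1.41 (adjusted p = 0.0469).

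The most abundant alpha-defensin row was one of these, Gm15284 (Defa30), with 1196020 counts over the 16 libraries beside 486128 for Defa24. Its level was 2623, 3240, 1887, 2893 and 1295 CPM in WT and 2901, 5486, 3890, 3861 and 3655 CPM in Mem. In Mem+Sol it ranged from 1649 CPM through a median of 4950 to 10830 CPM. Mem replicate 1 lay inside the WT range, the other 4 Mem libraries above it, and the Mem+Sol libraries overlapped WT. Fold changes were 0.67 ± 0.37 in Mem (log2, adjusted p = 0.28) and 1.01 ± 0.38 in Mem+Sol (adjusted p = 0.0537). The 32 alpha-defensin rows were the 18 named Defa and the 14 found by synonym. A relative under any other name was not counted. Over the 32 rows the summed level was 5154 to 12090 CPM in WT, 6378 to 10920 in Mem and 3521 to 21100 in Mem+Sol. Of these counts Defa21 and Defa22 took 28.4 to 37.0% in WT, 4.62 to 26.5% in Mem and 1.15 to 10.9% in Mem+Sol, while Gm15284 took 25.1 to 33.1%, 28.6 to 58.4% and 41.1 to 64.3%.

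**Figure D4:**
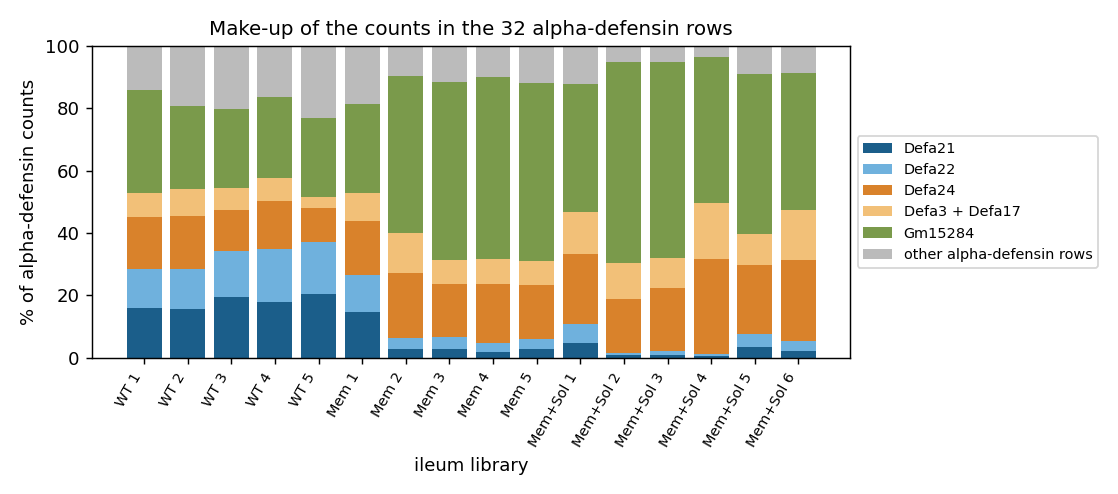
Share of the counts of the 32 alpha-defensin rows taken by each member or row in every ileum library, in percent, as stacked bars. Defa21 and Defa22 (blue) take at least 28.4% in each WT library and 26.5% in Mem replicate 1, and at most 10.9% in every other transgenic library, where Gm15284 takes at least 41.1%.

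Among 16 other genes known from Paneth cells, from a list of granule, surface, signalling and regulatory genes, 5 rose and 0 fell in Mem, where 5% of all tested genes rose and 3.06% fell. In Mem+Sol 7 of the 16 rose and 0 fell, where 16.6% of all tested genes rose and 12.1% fell. Their median log2 fold change was 0.72 and 0.63, beside 0.0 and 0.01 over all tested genes. Mptx1, a mucosal pentraxin, stood at 2.24 to 4.24 CPM in WT, at 37.4 CPM in Mem replicate 1, at 260 to 326 CPM in the other Mem libraries and at 107 to 656 CPM in Mem+Sol. It rose by 6.09 ± 0.55 (adjusted p = 2.46e-05) in Mem and 6.59 ± 0.56 (adjusted p = 4.85e-06) in Mem+Sol. Spink4, a trypsin inhibitor that is also on the goblet cell list, rose by 1.77 (adjusted p = 0.0113) and 2.37 (adjusted p = 0.000617). Nupr1, a stress-response regulator, rose in Mem+Sol by 1.21 (adjusted p = 0.000629), as did Copz2, a coat protein of vesicles, by 1.48 (adjusted p = 0.000764).

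Mmp7, which activates the alpha-defensins, stood at 137 to 233 CPM in WT, at 258 to 489 in Mem and at 62.0 to 918 in Mem+Sol. All Mem libraries lay above all WT libraries, but the log2 fold change of 0.95 ± 0.47 did not pass the test (adjusted p = 0.228), and that in Mem+Sol was 0.28 (adjusted p = 0.725). Itln1, the lectin intelectin, stood at 2009 to 4148 CPM in WT, 3511 to 5477 in Mem and 2728 to 16350 in Mem+Sol, with log2 fold changes of 0.60 (adjusted p = 0.358) and 1.04 (adjusted p = 0.0572).

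**Figure D5:**
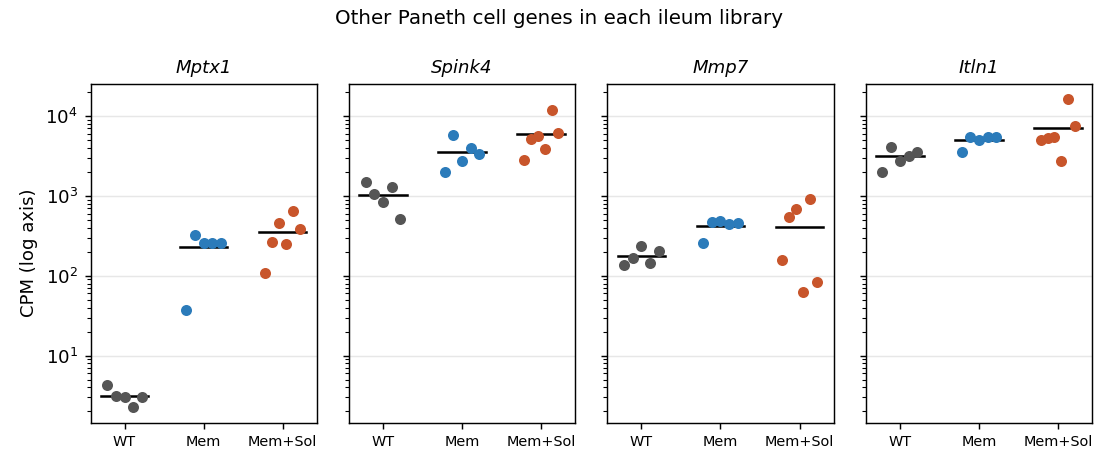
Levels of 4 other Paneth cell genes in each ileum library, in CPM on a log axis, with 1 point per library and a line at the mean of each genotype. Mptx1 is at most 4.24 CPM in WT and at least 37.4 CPM in every transgenic library, while Mmp7 spans 62.0 to 918 CPM in Mem+Sol alone.

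Genes listed for Paneth cell fate included some that rose and some that fell. Of 20 listed (Wnt and Notch pathway members, transcription factors), 3 rose and 0 fell in Mem, where 5% of all tested genes rose and 3.06% fell. In Mem+Sol 2 rose and 4 fell, where 28.7% of all tested genes passed, a share close to that of the list. Ephb3, Sox9 and Wnt3 stand in both lists, and Ephb3 is counted in each. Fzd5, the Wnt receptor needed for Paneth cell maturation, fell in Mem+Sol by 1.01 (adjusted p = 0.00688), and the Notch ligand Dll4 by 0.89 (adjusted p = 0.00474). Ephb3, which positions Paneth cells at the crypt base, rose by 0.78 in Mem (adjusted p = 0.0172) and 0.73 in Mem+Sol (adjusted p = 0.00786). Tcf4, counted among the risers, is the symbol of a helix-loop-helix factor and not of the Wnt pathway factor Tcf7l2. Tcf4 rose by 0.54 in Mem (adjusted p = 0.0285) and 1.04 in Mem+Sol (adjusted p = 0.000199). Tcf7l2, also on the list, did not pass, at -0.63 in Mem (adjusted p = 0.192) and -0.45 in Mem+Sol (adjusted p = 0.247). Of 20 genes of granule secretion and autophagy, 0 passed in Mem by edgeR (2 at an unadjusted p under 0.05), where 8.06% of all tested genes passed. In Mem+Sol 2 rose and 1 fell, where 28.7% of all tested genes passed, a share above that of this list. The risers were Ripk2 by 0.99 (adjusted p = 0.0234) and Lrrk2 by 0.90 (adjusted p = 0.0419), kinases of bacterial sensing and vesicle traffic. Slc30a2, a zinc transporter of Paneth cell granules, fell by 1.03 (adjusted p = 0.0211).

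Slc30a2 also had the pattern most like that of Lyz1 over the 16 ileum libraries, with a Pearson r of 0.961 between log2 CPM values, ahead of Zfp606 (0.935), Agmat (0.934), Fbp1 (0.92) and Lgr5 (0.917). Most like Ang4 were Pnliprp2 (0.981), Slc1a4 (0.971), Cd24a (0.967) and Fam73a (0.963). Most like the summed alpha-defensin members were Gm14207 (0.92), A930005H10Rik (0.915), Sp3os (0.911), Timm17b (0.904) and Snhg12 (0.901). These coefficients describe libraries of 3 genotypes and so contain the genotype differences. In the ribonuclease A family, 5 of 15 listed genes were tested. Ang, the close relative of Ang4, fell in Mem by 0.62 (adjusted p = 0.0234) and in Mem+Sol by 0.66 (adjusted p = 0.00468), while Rnase2a rose in both (adjusted p = 0.0141 and 0.00106) from a mean of 0.125 CPM in WT, with overlapping groups.

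Some markers of other cells passed the test in the same comparisons, and their part in the results above was not tested. Over all tested genes, 5% rose and 3.06% fell in Mem, and 16.6% rose and 12.1% fell in Mem+Sol. Of 6 smooth muscle genes 4 rose in Mem and 6 in Mem+Sol, with a summed level of 2015 to 4516 CPM in WT, 7155 to 12230 in Mem and 10280 to 49170 in Mem+Sol. Of 8 enterocyte genes 1 fell in Mem and 4 fell in Mem+Sol, with sums of 14700 to 32490, 8269 to 15680 and 5686 to 14390 CPM. Of 10 goblet cell genes 4 rose and 3 fell in each, with sums of 20620 to 24690, 18070 to 30650 and 13910 to 34230 CPM. Of 5 tuft cell genes 4 rose in Mem and 5 in Mem+Sol, with sums of 34.2 to 50.6, 93.2 to 342 and 159 to 328 CPM. Of 7 stem cell genes 0 passed in Mem (edgeR, 2 at an unadjusted p under 0.05), and in Mem+Sol 2 rose and 2 fell. Rgmb rose by 0.77 (adjusted p = 0.0345) and Smoc2 by 0.67 (adjusted p = 0.0375). Lgr5 fell by 1.07 (adjusted p = 0.0194) and Axin2 by 1.44 (adjusted p = 0.00258). Of 7 macrophage genes 0 passed in Mem (1 at an unadjusted p under 0.05) and 1 rose in Mem+Sol, with sums of 476 to 693, 518 to 639 and 516 to 889 CPM. The macrophage count in Mem+Sol was close to the share of all tested genes that rose. No gene of these lists was at 0 in all libraries of a genotype.

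In the lung, which has no crypts, Lyz1 was present at 301 to 499 CPM in WT, 423 to 596 in Mem and 250 to 513 in Mem+Sol, and Lyz2 exceeded it in every library, with a Lyz1 to Lyz2 count ratio of 0.0652 to 0.144. This is the reverse of the ileum, where Lyz1 exceeded Lyz2 in all 16 libraries. Ang4 and the alpha-defensin members had counts in 2 of 14 lung libraries and 0 in the other 12, where 0 counts in a library allow up to 0.0767 to 0.129 CPM. Lung levels were normalised separately from the ileum and are given without a test.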

How the data were processed

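Read counts per gene symbol, as deposited by the authors in one table for the ileum and one for the lung, were analysed. The submitters' processing notes name CASAVA, TopHat2 and the build mm10, without versions. How alignments became counts, and on which annotation and strand, is not given in the sources used here. All 16 ileum libraries were fitted with genotype and sex in edgeR 4.0.16 (R 4.3.3) after filterByExpr and TMM normalisation, with a robust quasi-likelihood test and Benjamini-Hochberg adjustment over 14959 genes at 0.05 (12 residual degrees of freedom, biological coefficient of variation 0.308). The SE is the log2 fold change divided by the square root of the F statistic. The fit was tested on simulated data. DESeq2 1.42.0, other scalings and filters, thinning, a replicate block and leaving out each library were tried, and one pair of exclusions was added after seeing the data. The lung was described without a test.

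Members and lists were chosen with earlier results of these data known. The text names every member, up to 6 other rows named Defa by mean level, Lyz2, Mmp7 and Itln1, up to 4 genes a list by smallest adjusted p among those that passed against WT, and the 5 genes most like Lyz1, Ang4 and the summed alpha-defensin members. The results of 2 genes that this rule named are left out. Any other gene was chosen after its values were seen. Stretches and coding identity come from GENCODE M21 (GRCm38), promoters from RefSeq. The labels do not say that replicate numbers pair the samples, and the main fit did not use these numbers.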

Additional observations from a re-analysis of the deposited data

Results flagged for a closer look

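Mem replicate 1 was far from the other Mem libraries in the ileum for both of a near-identical pair of alpha-defensins. Its Defa21 level was 1496 CPM, where the next highest Mem library had 293 CPM, a gap of 0.88 of the group's range. Its Defa22 level was 1194 CPM, where the next highest had 393 CPM, a gap of 0.788 of the range. The same comparison was made in 21 groups of libraries, and chance alone marks about 1 in 20 groups, and reads shared by this pair make the 2 entries depend on each other.

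In the lung, a tissue outside the comparisons, Ang4 and the alpha-defensin members had counts in 2 libraries, whereas Lyz1 had counts in every library. WT replicate 4 held 110 counts of Ang4, 9 of Defa24 and 4 of Defa17. Mem replicate 4 held 75 counts of Ang4 and 10 of Defa24. Each of these libraries had 14 counts over all alpha-defensin members, and the other 12 lung libraries had 0 of Ang4 and of these members. No source for these counts was tested.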

How the results depend on the processing

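Ang4 kept its direction and its call against WT in all 24 alternatives, at 2.80 to 3.45 in Mem and 2.69 to 3.41 in Mem+Sol. Of the 7 tested members, 1 passed in Mem and 2 in Mem+Sol against WT. Leaving out a library gave 1 to 2 in Mem, with 2 without Mem replicate 1, and 1 to 4 in Mem+Sol. DESeq2 gave 4 in Mem+Sol, as did leaving out Mem replicate 1 with WT replicate 2, chosen after seeing the data. In Mem+Sol against Mem none passed in any alternative. Defa3 in Mem against WT turned to -0.01 without WT replicate 5 and -0.0392 without Mem replicate 2, in a leave-one-out range of -0.0392 to 0.38. In Mem+Sol against Mem, Ang4 turned to 0.17 with no sex term, 0.14 with the replicate block, and 0.17, 0.06, 0.12, 0.10 and 0.11 without Mem replicates 2 and 4 and Mem+Sol replicates 1, 4 and 6 (leave-one-out range -0.27 to 0.17). Defa21 there turned to 0.48 without Mem replicate 1 and 0.48 without the added pair (range -1.40 to 0.48). Defa22 turned to 0.51 without Mem replicate 1, 0.05, 0.03 and 0.21 without Mem+Sol replicates 2, 3 and 4, and 0.50 without the added pair (range -0.9998 to 0.51). The cause was not tested, and none of these differences passed the test in any setting.

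Over all genes, 1205 passed in Mem against WT, beside 1926 with DESeq2, 591 after thinning to the smallest total and 448 to 2396 without 1 library. In Mem+Sol against WT 4296 passed, beside 2590 after thinning. In Mem+Sol against Mem 2 passed, beside 40 with DESeq2 and 8 without Mem+Sol replicate 1. Same-numbered libraries were correlated at -0.17 to 0.469 over 15 pairs, 7 of them above 0.1. Of 16 libraries, 7 correlated best with a library of their own number in another genotype. These values do not settle whether the numbers pair samples. The labels do not say that they do, so the main fit had no replicate term. With the replicate block 1, 2 and 0 members passed in the 3 comparisons, with Defa21 in place of Lyz1 in Mem+Sol.

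Close paralogs limit Defa3, Defa17, Defa21 and Defa22 as separate measurements, and the WT libraries were the shallowest. With 5 or 6 libraries a group, differences of the size seen for Defa17, Defa21 and Gm15284 in Mem+Sol lay at the threshold.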
